A study of Mus musculus with 16 samples.

Results

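The 6 genes described here, most of them best known from neurons, were followed in mouse granulosa cells (mGCs), somatic cells of the ovarian follicle that nurse the oocyte. The genes are Elavl2, Stmn2, Dpp6, Snhg11, Kif1a and Ptprq, 6 of the 57010 genes in the count tables. They were picked by name because their levels were lower in mGCs given 14,15-EET than in mGCs given PBS, so that difference is described here without a test, and no threshold was part of the choice. RNA sequencing covered 16 libraries in 2 experiments, each with its own table of read counts per gene. In the first, mGCs were taken freshly from superovulated ICR mice, 5 with sham surgery (Con) and 5 carrying endometrium of estradiol-treated donor mice sewn onto the bowel mesentery as a model of endometriosis (EM). Recipients were given estradiol with a washout before ovulation was induced. In the second, mGCs of 6 EM mice were divided and cultured in DMEM/F12 medium with 5% serum, and for 24 h received 100 nM 14,15-EET (EET, n = 3) or an equal volume of PBS (PBS, n = 3). 14,15-EET is an epoxide of arachidonic acid that soluble epoxide hydrolase breaks down. All cultured cells therefore came from EM mice, and the methods call the libraries paired biological replicates without saying which of them form a pair. The labels give 24 h of culture, while the study also describes a day of culture before the treatment, so the total time in culture is uncertain. The mice were females of 6 weeks at the start, and the ICR background was shared by all groups. The total count per library was between 14229123 and 15999234 in the fresh cells and between 21384686 and 29482826 in the cultured cells. The library EM-mGC-3 stood apart with 21.8% mitochondrial counts, where the other fresh libraries had 6.76% to 11.1%.

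Neurons depend on regulated RNA, microtubules, axonal transport and ion channels, and several of the genes followed here serve these. Elavl2 encodes an RNA-binding protein (HuB) that binds AU-rich sequences and regulates splicing and stability of neuronal transcripts, and it is also known from oocytes. Stmn2 encodes stathmin-2, which binds tubulin in growing axons. Kif1a encodes a kinesin motor that carries synaptic vesicle precursors along axons. Dpp6 encodes an auxiliary subunit of A-type potassium channels, which shape the firing of neurons. Ptprq encodes a receptor-type phosphatase known from the hair bundles of the inner ear, and Snhg11 is a small nucleolar RNA host gene with high levels in brain. Many neuronal genes are held down outside neurons by the repressor REST, which binds a bipartite element at their promoters.

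The table placed Elavl2 (ENSMUSG00000008489) at chr4:91139000-91289022 on the minus strand and Stmn2 (ENSMUSG00000027500) at chr3:8574420-8626666 on the plus strand. Dpp6 (ENSMUSG00000061576) spans chr5:27022201-27932503 on the plus strand, and Snhg11 (ENSMUSG00000044349) spans chr2:158217558-158228071 on the plus strand. Kif1a (ENSMUSG00000014602) lies at chr1:92943186-93029673 and Ptprq (ENSMUSG00000035916) at chr10:107352910-107555912, both on the minus strand. These coordinates are those of the count tables, and the submitters' processing notes name GRCm39 as the build. The tables list Snhg11 as protein-coding. Genes that overlap Elavl2, Dpp6 or Snhg11 had few counts, at most 23 in a library, and no other listed gene overlaps Stmn2, Kif1a or Ptprq.

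The promoters listed for the 6 genes in RefSeq (GRCm38.p6, 250 bases before to 50 after each start) were searched for short motifs on both strands. Entries were found for 4 of the 6, with 12 promoters in all. The left part of the REST element, TTCAGCACC, was in 0 of the 12 and in 0.371% of 32851 promoters of the same length. Its right part, GGACAG, was in 3 of the 12, a Kif1a, an Elavl2 and a Dpp6 promoter, and in 22.2% of all promoters. The GC box GGGCGG was in 7 of the 12 and in 35.7% of all. These 7 belong to Elavl2 (5) and Dpp6 (2), and the Elavl2 windows lie in 2 clusters of overlapping windows that share sites, so they are not separate matches. The E-box CACGTG was in 1 of the 12 and in 7.15%. None of the 12 held the cAMP response element TGACGTCA (1.79% of all), the PPAR element (0.0396%) or the NF-kappaB site (0.155%), and the Snhg11 promoter held none of the 7 motifs. The 3 promoters with GGACAG are shown 5′ to 3′ on the strand of the gene, since they hold the only match to a part of the REST element. Capitals mark every motif match on either strand, so that CTGTCC is GGACAG and CCGCCC is GGGCGG read on the other strand. Counts per gene do not tell which of several starts was used.
Kif1a (GRCm38.p6, chr1:93082431-93082730, minus strand): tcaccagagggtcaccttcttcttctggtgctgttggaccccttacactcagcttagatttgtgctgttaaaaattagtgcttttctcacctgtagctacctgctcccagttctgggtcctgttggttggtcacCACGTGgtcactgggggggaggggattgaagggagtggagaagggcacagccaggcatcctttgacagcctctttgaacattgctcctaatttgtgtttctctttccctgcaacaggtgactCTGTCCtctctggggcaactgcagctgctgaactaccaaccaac
Elavl2 (GRCm38.p6, chr4:91399935-91400234, minus strand): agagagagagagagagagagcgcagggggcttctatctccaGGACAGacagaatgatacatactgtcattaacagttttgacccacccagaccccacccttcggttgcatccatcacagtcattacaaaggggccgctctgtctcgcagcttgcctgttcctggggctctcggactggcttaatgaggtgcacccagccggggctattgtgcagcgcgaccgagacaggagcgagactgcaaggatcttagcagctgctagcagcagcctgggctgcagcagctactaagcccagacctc
Dpp6 (GRCm38.p6, chr5:27261685-27261984, plus strand): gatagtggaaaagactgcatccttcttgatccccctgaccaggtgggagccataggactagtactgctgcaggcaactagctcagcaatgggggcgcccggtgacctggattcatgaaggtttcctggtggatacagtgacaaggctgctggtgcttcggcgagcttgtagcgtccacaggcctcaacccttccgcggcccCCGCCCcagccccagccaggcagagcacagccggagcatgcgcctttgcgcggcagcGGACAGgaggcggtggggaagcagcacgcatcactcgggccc

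Levels are given as CPM, the counts of a gene scaled to a common library size with TMM scaling within each experiment. In culture each of the 6 genes was lower in all 3 EET libraries than in all 3 PBS libraries, which is what they were picked for. Among the 15050 genes tested in these 6 libraries, 9.17% had groups that did not overlap in this direction, and 0.724% were called lower (edgeR's quasi-likelihood test, adjusted p under 0.05). The log2 fold changes below are described with their standard errors (SE) and are no evidence on their own, since the same values chose the genes.

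Elavl2, the RNA-binding protein gene, was at 6.40, 8.34 and 7.91 CPM in PBS-1, PBS-2 and PBS-3 and at 3.56, 3.31 and 2.93 CPM in EET-1, EET-2 and EET-3. The lowest PBS library was well above the highest EET library, and the log2 fold change was -1.21 (SE 0.144), or 0.433-fold. Elavl1, its ubiquitous relative, differed by 0.02 on the log2 scale (SE 0.050, adjusted p = 0.891 from edgeR), and Elavl3 and Elavl4 had at most 4 counts in any cultured library.

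Stmn2, the tubulin-binding stathmin of axons, was at 3.84, 6.77 and 5.82 CPM in the PBS libraries and at 2.65, 2.40 and 2.30 CPM in the EET libraries. The PBS libraries spread more widely than the EET libraries, with PBS-1 nearest to them, and the log2 fold change was -1.17 (SE 0.201). Stmn1, the stathmin of dividing cells, was at 115 ± 9.55 CPM (SD, n = 3) with PBS and 120 ± 7.62 CPM with EET (log2 fold change 0.06, adjusted p = 0.759 from edgeR).

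Kif1a, the vesicle motor, was the most abundant of the 6 per kilobase of exon in culture. It was at 101, 105 and 107 CPM in the PBS libraries and at 71.2, 68.6 and 70.5 CPM in the EET libraries, from counts of 1685 to 2981. The libraries of each group lay close together, and the log2 fold change of -0.57 (SE 0.0483) was the smallest in size of the 6. Its relatives Kif1b and Kif1c had log2 fold changes of -0.01 and -0.09 (adjusted p = 0.940 and 0.568 from edgeR).

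Dpp6, the potassium channel subunit, was at 2.51, 3.27 and 3.49 CPM in the PBS libraries and at 1.09, 1.79 and 1.00 CPM in the EET libraries, from counts of 24 to 97. EET-2 was the highest of the EET libraries, and the log2 fold change was -1.26 (SE 0.243), the largest in size and the one with the widest error. The pore-forming subunit Kcnd2 stood at -0.23 (edgeR, adjusted p = 0.620) and the channel-interacting protein gene Kcnip3 at -0.46 (adjusted p = 0.370) on the log2 scale.

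Ptprq, the phosphatase, was at 30.7, 34.9 and 27.0 CPM in the PBS libraries and at 15.0, 17.4 and 17.6 CPM in the EET libraries, a log2 fold change of -0.89 (SE 0.10). The lowest PBS library exceeded the highest EET library. The related receptor phosphatases Ptprb and Ptprj had log2 fold changes of -0.24 and 0.01 (adjusted p = 0.583 and 0.983 from edgeR).

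Snhg11, the small nucleolar RNA host gene, was at 3.89, 3.77 and 3.85 CPM in the PBS libraries and at 2.14, 1.64 and 1.88 CPM in the EET libraries. Its PBS libraries differed by little, and the log2 fold change was -1.02 (SE 0.168). Of 12 other host genes tested, none was called (0 of 12), and Gas5, the most abundant of them per kilobase, stood at 0.03 on the log2 scale (edgeR, adjusted p = 0.847).

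**Figure D1:**
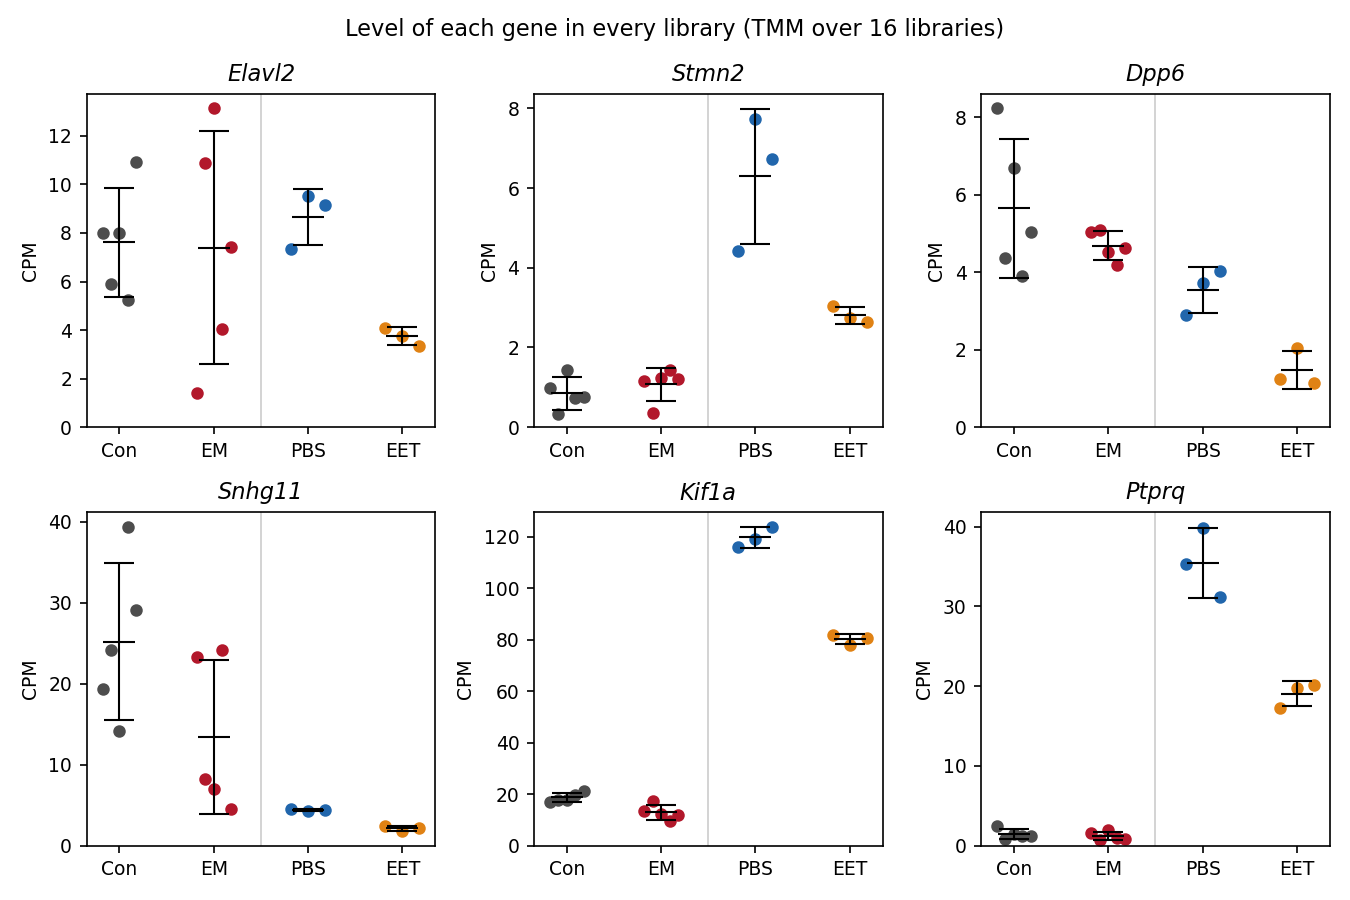
Level of each gene in every library, in CPM on the vertical axes with TMM scaling over the 16 libraries; points are libraries, bars the mean ± SD, and a line divides fresh (Con, EM) from cultured (PBS, EET) cells. Every EET point lies below every PBS point, while Con and EM points overlap for all 6 genes.

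The other genes of the same families and pathways were taken from 11 lists with 124 distinct genes beside the 6, of which 82 were tested in culture. Of these, 7 were called, 5 lower and 2 higher with EET (8.54%, where edgeR called 1.22% of all genes tested, 0.724% lower and 0.498% higher). The lists were written with earlier results of these data known, so this share is a description and no independent support. Of the 82, 51 were lower and 31 higher, and their median log2 fold change was -0.06, against 0.0011 over all genes. Without EET-2 or without EET-3 the count was 4, where 61 of 15325 and 48 of 15349 genes tested were called.

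Bdnf, a neurotrophin gene and known REST target, had the largest decrease of these, with 41.6, 53.1 and 44.8 CPM in the PBS libraries and 27.8, 27.7 and 27.6 CPM in the EET libraries. The EET libraries were nearly equal, and the log2 fold change was -0.75 (SE 0.0828, adjusted p = 0.00147 from edgeR). In the fresh libraries Bdnf had between 1 and 17 counts, at most 1.06 CPM.

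Of the neuronal cytoskeleton genes, 3 of 8 tested were called lower and 1 higher by edgeR. Dpysl3, a collapsin response mediator gene, fell from 164 ± 9.71 to 125 ± 0.269 CPM (SD, n = 3), which is -0.40 on the log2 scale (edgeR, adjusted p = 0.00316). Tubb3, the neuronal beta-tubulin gene, also on the list of REST targets, fell by 0.38 on the log2 scale (adjusted p = 0.0111), from 112 ± 9.06 to 85.5 ± 4.64 CPM. Map1a fell by 0.27 (adjusted p = 0.0165), from 221 ± 9.74 to 183 ± 2.04 CPM. Map2, which stabilizes microtubules in dendrites, went the other way and rose from 43.4 ± 2.76 to 58.2 ± 0.934 CPM, which is 0.43 on the log2 scale (edgeR, adjusted p = 0.00399). Map1b, which encodes a related microtubule-associated protein, was at 392 ± 11.0 CPM with PBS and 398 ± 17.3 CPM with EET (adjusted p = 0.895).

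Kif5c, a conventional kinesin heavy chain gene, was the only 1 of 13 other axonal transport genes called, with a log2 fold change of -0.48 (SE 0.0974, adjusted p = 0.0328 from edgeR). Cplx1, which encodes a regulator of vesicle fusion, rose from 12.5 ± 1.76 to 20.8 ± 0.513 CPM, a log2 fold change of 0.74 (adjusted p = 0.00294), and was the only 1 of 11 synaptic vesicle and secretion genes called. Of these 11, 9 had negative and 2 positive log2 fold changes, with a median of -0.091. REST and its corepressors were tested in full, and 0 of 12 were called, with a median log2 fold change of -0.02. Rest itself was at 60.4 ± 2.19 CPM with PBS and 60.7 ± 1.13 CPM with EET (adjusted p = 0.967). Of the known REST targets other than Stmn2, 11 of 18 were tested and 2 were called, Bdnf and Tubb3. None of the ELAVL and related RNA-binding protein genes (0 of 7), the other stathmin (0 of 1), the A-type channel genes (0 of 5), the receptor phosphatases (0 of 2) or the neurite adhesion genes (0 of 5, all with negative log2 fold changes) was called by edgeR. Over the 82 genes, 19 had an unadjusted p under 0.05, as had 1868 of all 15050 genes tested (12.4%).

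Bdnf, Dpysl3, Map2 and Cplx1 were called under each of the 10 alternatives tried, 6 of which leave out a library. Kif5c was called under 6, Map1a under 7 and Tubb3 under 8 of the 10, and each of the 7 genes kept its direction in all.

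**Figure D2:**
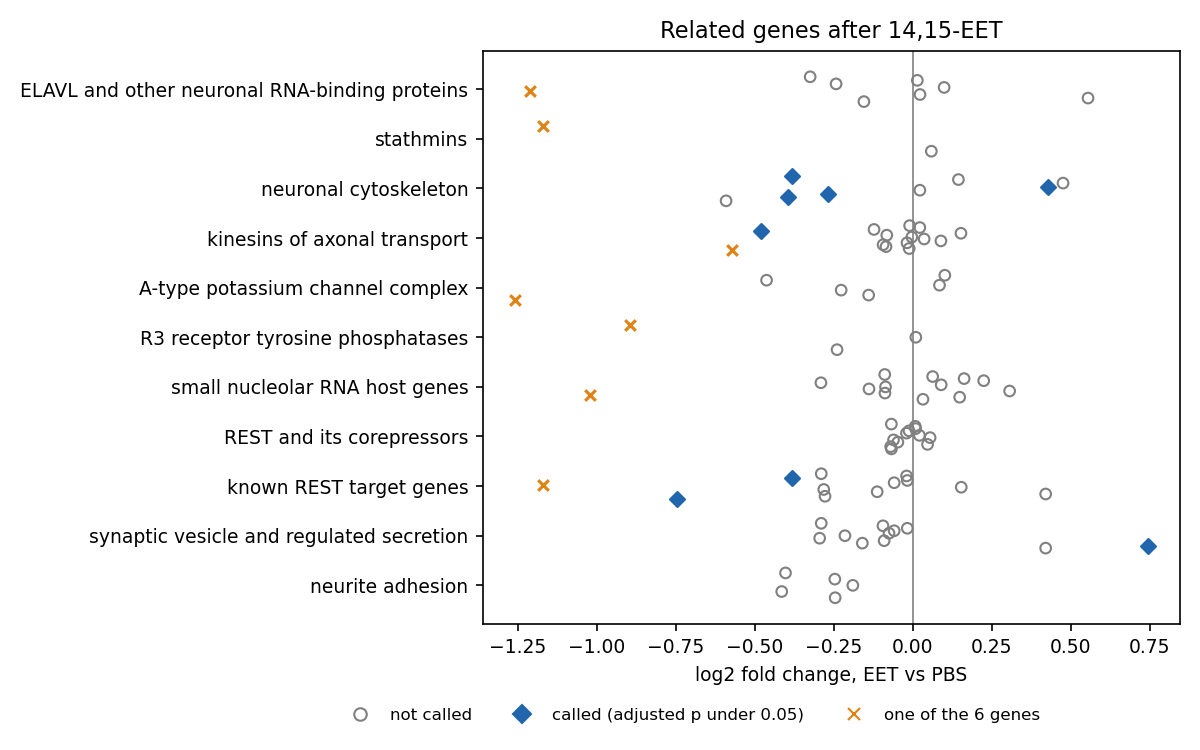
Log2 fold change in EET against PBS (horizontal axis) of the tested genes in the 11 lists (rows); crosses are the 6 genes, filled diamonds other genes called by edgeR and open circles genes not called. The other genes run on both sides of 0, with 5 called lower and 2 called higher, and some genes, Stmn2 and Tubb3 among them, stand in 2 rows.

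Whether the 6 genes also differ between mGCs of mice with and without endometriosis was asked in the fresh libraries, which took no part in choosing them. None of the 6 was called in EM against Con (0 of 6), and 0 of 17229 genes tested was (0.0%, edgeR's quasi-likelihood test, smallest adjusted p = 0.207), while 1626 genes, or 9.44%, had an unadjusted p under 0.05. DESeq2 called 113 genes, none of them among the 6. All 6 genes had overlapping groups, where 1.69% of the genes tested did not overlap, 0.778% in the lower direction. Of the 6, 5 had negative log2 fold changes, as had 51.8% of all genes tested.

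Kif1a was at 18.5, 19.5, 19.2, 21.8 and 23.1 CPM in Con-mGC-1 to 5 and at 14.7, 18.9, 13.4, 10.5 and 13.1 CPM in EM-mGC-1 to 5. Only EM-mGC-2 reached into the range of the Con libraries. The log2 fold change was -0.53 (SE 0.154), with an adjusted p of 0.418 from edgeR. Its unadjusted p was 0.00477, and permuting the CPM values exactly (two-sided) gave p = 0.0159, where 5 libraries against 5 allow 0.00794 at the least. These 2 values were not adjusted for the 6 genes examined.

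Snhg11 was at 20.9, 26.4, 15.3, 43.4 and 31.7 CPM in the Con libraries and at 25.1, 8.92, 7.62, 26.3 and 4.88 CPM in the EM libraries. In EM, 3 libraries lay below every Con library and the other two within their range. The log2 fold change was -0.91 (SE 0.443, adjusted p = 0.540 from edgeR, two-sided exact permutation p = 0.0714).

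Elavl2 was at 8.66, 6.42, 8.67, 5.75 and 11.9 CPM in the Con libraries and at 1.53, 11.8, 14.2, 4.43 and 8.04 CPM in the EM libraries. The EM libraries spread on both sides of the Con libraries, and the log2 fold change was -0.05 (SE 0.45, adjusted p = 0.977 from edgeR). Its sign turned positive when EM-mGC-1 (0.214), EM-mGC-4 (0.101) or Con-mGC-5 (0.115) was left out.

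Stmn2, Dpp6 and Ptprq had log2 fold changes of 0.34 (SE 0.424), -0.27 (SE 0.219) and -0.32 (SE 0.368), with adjusted p = 0.813, 0.701 and 0.799 from edgeR. Stmn2 had between 6 and 25 counts and Ptprq between 11 and 40 counts in a fresh library, and their standard errors were similar to those of Elavl2 and Snhg11, which had more counts. Dpp6 ran from 4.30 to 8.92 CPM in the Con libraries and from 4.56 to 5.51 CPM in the EM libraries. Of the listed genes other than the 6, 103 were tested and 0 were called, with 9 at an unadjusted p under 0.05 and a median log2 fold change of -0.05, against -0.01 over all genes. DESeq2 called 1 of them, the adhesion gene Ncam1.

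**Figure D3:**
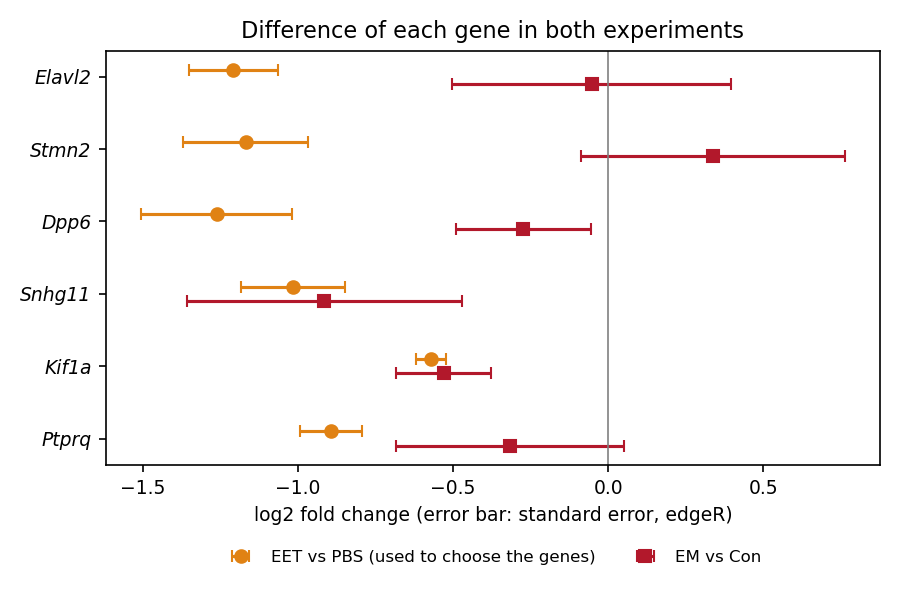
Log2 fold change (horizontal axis) of each gene in EET against PBS, which chose the genes, and in EM against Con; bars are standard errors from edgeR. In EM against Con the values run from -0.91 for Snhg11 to 0.34 for Stmn2.

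The 2 experiments were set on one scale by TMM over the 16 libraries to compare levels in fresh and cultured cells. The PBS libraries also took part in choosing the genes, and culture, experiment and table cannot be told apart, so no test was made. Ptprq was at 1.19 ± 0.541 CPM (SD, n = 5) in EM and at 35.4 ± 4.35 CPM (SD, n = 3) in PBS, 29.8-fold higher in culture. Kif1a was at 13.0 ± 2.88 CPM in EM and 120 ± 3.93 CPM in PBS (9.19-fold). Stmn2 was at 1.08 ± 0.414 CPM in EM and 6.29 ± 1.70 CPM in PBS (5.84-fold). For these 3 genes every cultured library, with or without EET, was above every fresh library. With EET they were still 16-fold, 6.15-fold and 2.60-fold above EM in the same order. Snhg11 was the reverse, at 13.4 ± 9.49 CPM in EM and 4.41 ± 0.0933 CPM in PBS, 3.05-fold higher in the fresh cells. Dpp6 was at 4.69 ± 0.374 CPM in EM and 3.55 ± 0.593 CPM in PBS, and at 1.48 ± 0.485 CPM with EET. Elavl2 was at 7.39 ± 4.80 CPM in EM and 8.68 ± 1.16 CPM in PBS, a ratio of 1.17 that was 0.993 without composition factors and 0.943 with scaling within each table. The median gene differed by 0.0854 on the log2 scale with joint TMM and by -0.183 without composition factors.

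Per kilobase of exon the order of the 6 genes was not the same in fresh and cultured cells. In PBS, Kif1a was highest at 12.8 ± 0.421 CPM per kb (SD, n = 3) and Ptprq next at 4.73 ± 0.58 CPM per kb. Stmn2 (1.12 ± 0.303 CPM per kb) and Elavl2 (1.04 ± 0.139 CPM per kb) did not differ beyond their spread, and Snhg11 (0.517 ± 0.0109 CPM per kb) and Dpp6 (0.288 ± 0.048 CPM per kb) were lowest. In Con, Snhg11 was highest at 2.96 ± 1.13 CPM per kb (SD, n = 5), within its spread of Kif1a at 2.01 ± 0.183 CPM per kb. Elavl2 (0.916 ± 0.27 CPM per kb) and Dpp6 (0.458 ± 0.146 CPM per kb) followed. Ptprq (0.196 ± 0.077 CPM per kb) and Stmn2 (0.151 ± 0.0721 CPM per kb) did not differ beyond their spread and were lowest. In EM, Snhg11 was at 1.58 ± 1.11 CPM per kb, within its spread of Kif1a at 1.40 ± 0.308 CPM per kb and of Elavl2 at 0.889 ± 0.578 CPM per kb. Dpp6 (0.38 ± 0.0303 CPM per kb) followed, and Stmn2 (0.192 ± 0.0738 CPM per kb) and Ptprq (0.159 ± 0.0722 CPM per kb) were lowest, again within their spread of each other.

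Markers of the cell types that the samples could hold were read beside these genes, as CPM on the joint scale. The 8 granulosa markers summed to between 4500 and 15400 CPM in the fresh libraries and to between 4610 and 5720 CPM in culture, where Inha or Inhba was the most abundant and Amh and the aromatase gene Cyp19a1 had at most 10 counts in a library. Their sum was 5720, 5110 and 5530 CPM in the PBS libraries and 5080, 4610 and 4730 CPM in the EET libraries, so the groups did not overlap. The gap was small, and 9.17% of single genes tested did not overlap in this direction. Of the 6 granulosa markers tested, 3 were lower and 3 higher with EET, and only Inha was called, as lower (log2 fold change -0.36, adjusted p = 0.043 from edgeR). With scaling within the experiment Inha was at 2470 CPM in PBS and 1920 CPM in EET. Inhba, nearly as abundant, was at 1930 CPM in PBS and 1970 CPM in EET. The 7 surface epithelial markers, led by Krt18, summed to 178, 193 and 183 CPM in PBS and to 159, 144 and 152 CPM in EET, and Krt18 was called lower (log2 fold change -0.29, adjusted p = 0.0152). Most of each sum was Krt18 and Krt8, at 83.7 and 72.8 CPM in PBS with scaling within the experiment. In EET they were at 68.3 and 60.6 CPM. Of the 6 surface epithelial markers tested, 4 were lower and 2 higher with EET. Of 5 smooth muscle markers, 1 was called, Cnn1, at a log2 fold change of -0.70 (adjusted p = 0.0166), and their sums overlapped, at 570 to 767 CPM in PBS and 500 to 578 CPM in EET. Over all marker lists, 38 markers were tested in EET against PBS and 5 were called by edgeR, where 1.22% of all genes tested were. The 5 included the neuron markers Tubb3, lower with EET, and Map2, higher, which were already counted above among the called list genes. An unadjusted p under 0.05 was found for 13 of the 38, and for 12.4% of all genes. The part of these marker differences in those of the 6 genes was not tested. In such bulk samples fewer cells of a type and less RNA per cell cannot be told apart.

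The 11 neuron markers summed to between 176 and 199 CPM in PBS and between 165 and 177 CPM in EET, most of it Tubb3 and Map2. The neuronal genes Nefl, Slc17a6, Gad1 and Gad2 were at 0 in all 6 cultured libraries, where 0 counts allow up to 3 counts in a library, and Snap25 had at most 4 counts. Of the sympathetic neuron markers, Th was at 0 in culture and the summed level was at most 0.834 CPM. Slc17a7, a vesicular glutamate transporter gene, was at 3.31 ± 0.62 CPM in PBS and 3.40 ± 0.111 CPM in EET on the scale within the experiment, from 64 to 112 counts, and Rbfox3, Syp and Syt1 were under 1 CPM. In the fresh cells Rbfox3 was at 3.77 ± 0.543 CPM in Con and 2.93 ± 0.287 CPM in EM, Syp was at 2.64 CPM in both, and Syt1 was at 1.97 ± 1.25 and 1.53 ± 1.28 CPM. The neuron markers were thus mixed, and the name neuronal refers here to where most of the 6 genes, though not Ptprq, are best known. In EM against Con, 0 of the 70 markers tested were called by edgeR and 12 had an unadjusted p under 0.05 (9.44% of all genes tested had one), among them the smooth muscle gene Myh11, the collagen gene Col1a1 and the neutrophil gene S100a8. The 6 stromal markers summed to 858 to 1010 CPM in Con and 356 to 821 CPM in EM, so the groups did not overlap. The 5 endothelial markers had medians of 132 CPM in Con and 113 CPM in EM and did not overlap either. Of single genes tested, 0.778% did not overlap in this direction. All 7 leukocyte markers had positive log2 fold changes, with sums of 122 to 300 CPM in Con and 232 to 590 CPM in EM, and their part in the values of Kif1a and Snhg11 was not tested. Sums of the other lists in PBS and EET were 15.8 to 19.1 and 17.4 to 17.8 CPM for Schwann cells and glia, 49.8 to 55.9 and 51.5 to 54.0 CPM for theca cells, 225 to 310 and 256 to 262 CPM for stromal cells, 4.08 to 4.96 and 4.59 to 4.89 CPM for endothelial cells, 8.34 to 12.9 and 11.2 to 18.6 CPM for leukocytes, and under 0.22 CPM for red blood cells. In PBS-1 the glia sum was mostly Erbb3 (14.0 CPM), the theca sum mostly Ptch1 (49.2 CPM) and the stromal sum mostly Col1a1 (289 CPM). These genes also led in the other cultured libraries. Sox10 was at 0 in all 6 cultured libraries, and Cyp17a1 had at most 2 counts. With scaling within the experiment Dcn was at 1.42 CPM in PBS and 1.22 CPM in EET.

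Oocyte markers were high in the fresh libraries and nearly absent in culture. The 15 markers, of which Gdf9 was the most abundant, summed to 1080, 474, 751, 549 and 1050 CPM in Con-mGC-1 to 5 and to 145, 973, 1060, 341 and 654 CPM in EM-mGC-1 to 5. In PBS the sums were 1.64, 1.67 and 1.54 CPM and in EET 1.29, 1.30 and 1.15 CPM, with Nlrp5, Oosp1, Figla and Padi6 at 0 in all 6 cultured libraries. The fresh libraries low in these markers, EM-mGC-1 and EM-mGC-4, were also the lowest in Elavl2. Over the 10 fresh libraries the log2 level of Elavl2 followed that of the oocyte sum, with Pearson's r = 0.97 (permutation p = 0.00016 from 100000 permutations, adjusted 0.00096 over the 6 genes) and Spearman's rho = 0.867 (permutation p = 0.0020, adjusted 0.012). Without EM-mGC-1 and EM-mGC-4, the 2 libraries farthest from the median oocyte sum on the log2 scale, r was 0.863. For the other 5 genes Pearson's r was between -0.355 for Snhg11 and 0.394 for Kif1a (smallest adjusted permutation p = 0.45). Spearman's rho was farthest from 0 for Dpp6 among these 5, at 0.576 (permutation p = 0.089, adjusted 0.27), and its r without the same 2 libraries was 0.516. This relation was looked at after the values were seen, and no correlation was computed within Con or EM, which hold 5 libraries each. In culture Elavl2 was at 8.68 ± 1.16 CPM in PBS and 3.74 ± 0.377 CPM in EET, and the oocyte sum was at most 1.67 CPM. The oocyte sums of PBS and EET did not overlap either (9.17% of single genes tested did not in this direction), and their part in the Elavl2 values was not tested.

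**Figure D4:**
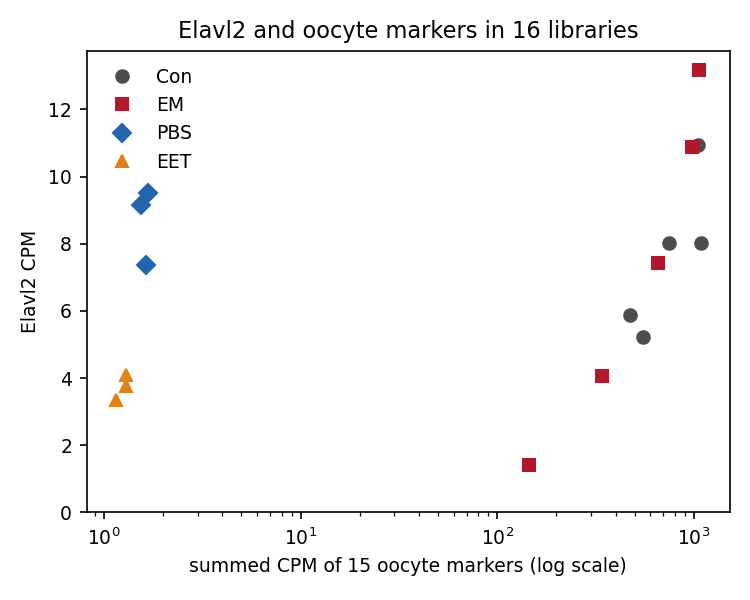
Level of Elavl2 (vertical axis, CPM) against the summed level of 15 oocyte markers (horizontal axis, CPM, log scale) in each of the 16 libraries, TMM-scaled together. In the fresh libraries both run together, from 145 CPM of oocyte markers in EM-mGC-1 upwards, and the PBS and EET libraries stand apart at under 2 CPM of oocyte markers.

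The genes whose log2 level was most like each of the 6 over the 10 fresh libraries were taken by Pearson's r among 13264 genes (13265 for Stmn2 and Ptprq), as a description. For Elavl2 they were AU016765 (r = 0.986), Oas1e (0.984), an oligoadenylate synthetase family gene, and Gng3 (0.984), a G protein subunit gene. For Stmn2 they were Phldb3 (0.947), Arhgap30 (0.946) and Cyth4 (0.916). For Dpp6 they were Rasgrf2 (0.950), Snx33 (0.945) and Nelfe (0.911). Pop4 (0.935), Syde1 (0.911) and Myo1a (0.909) were most like Snhg11, Dnah2 (0.956), Smarcal1 (0.954) and Cbs (0.947) most like Kif1a, and Emid1 (0.959), Gpr27 (0.940) and Sqor (0.921) most like Ptprq. No p was computed for these. With Spearman's rho 2 of the 3 genes were the same for Elavl2, Dpp6 and Ptprq and 0 for the others. The 6 genes did not run together among themselves, as r over their 15 pairs was between -0.602 and 0.576 with a median of 0.18, and 9 pairs were positive. None of the 6 stood among the genes named as most like another.

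The nearest tested gene on each side of the 6 genes was not called in either comparison (0 of 12 in each). Snhg17, which lies 14.1 kb before Snhg11, stood at 0.09 on the log2 scale with EET (edgeR, adjusted p = 0.694), and Paxip1, 12.6 kb after Dpp6, one of -0.08 (adjusted p = 0.649). Capn10, 67.5 kb before Kif1a, was at -0.16 (adjusted p = 0.324), and the transcription factor gene Hey1, 102 kb after Stmn2, was at 0.08 (adjusted p = 0.904). Among the genes tested in culture, those nearest to Elavl2 and Ptprq were between 405 and 1670 kb away. In EM against Con a nearer neighbor of Ptprq was tested, the muscle regulator gene Myf5 at 30.9 kb, which had a log2 fold change of -1.58 (SE 0.472, adjusted p = 0.418).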

How the data were processed

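The authors deposited raw read counts per Ensembl gene, 1 table per experiment, from stranded poly(A) libraries. The submitters' processing notes name fastp, HISAT2, StringTie and GRCm39. Versions and the strand setting of the counting are not given in the sources used here, so reads of overlapping or similar genes may be misassigned. Each table was filtered with filterByExpr, scaled by TMM and fitted with edgeR 4.0.16 in R 4.3.3 (quasi-likelihood, p-values adjusted by Benjamini-Hochberg over all genes tested, called under 0.05 without covariates). The alternatives were DESeq2 1.42.0, RLE, no filter, a replicate block and leaving out each library. In simulated counts with 200 changed genes the fit recovered 192 with 11 false calls for EET vs PBS (15050 genes) and 166 with 3 false calls for EM vs Con (17229 genes). These totals were not divided by the size of the change. Recovery at log2 fold changes as small as those of the called list genes was not tested. Exon lengths came from GENCODE on GRCm38. Beside the 6 genes, those named are the called genes, relatives and, in places, the most abundant of each list, nearest tested neighbors, and the 3 genes most like each of the 6 (mean log2 CPM of 1 or more, predicted symbols left out). Genes and lists were chosen with earlier results of these data known. Paired biological replicates are what the study calls the cultured libraries, but neither methods nor labels say that equal numbers mark pairs, so the fit was unpaired.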

Additional observations from a re-analysis of the deposited data

Results flagged for a closer look

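In groups of 5 libraries, 36 sets of values were searched for a library far from the others, and 5 were found, where chance gives about 1 in 20. Stmn2 was at 0.393 CPM in EM-mGC-2, and the nearest EM library was at 1.25 CPM. The summed markers of sympathetic neurons were at 12.3 CPM in Con-mGC-1 against 5.13 CPM in the nearest Con library. Schwann cell and glia markers summed to 83.6 CPM in EM-mGC-2 against 48.4 CPM in the nearest EM library. The leukocyte sum was 300 CPM in Con-mGC-3 against 160 CPM in the nearest Con library. Red blood cell markers reached 14500 CPM in EM-mGC-3 against 5270 CPM in the nearest EM library, and this library also had the highest mitochondrial share.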

How the results depend on the processing

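The 6 genes were lower in EET under every alternative run (DESeq2, RLE, no filter, replicate block and each library left out), with log2 fold changes from -1.31 to -1.13 for Elavl2, -1.35 to -0.993 for Stmn2, -1.56 to -1.12 for Dpp6, -1.13 to -0.924 for Snhg11, -0.593 to -0.552 for Kif1a and -0.985 to -0.794 for Ptprq with a library left out. That direction was bound to hold, since the same libraries chose the 6 genes and their groups did not overlap, so it is no support. The number of genes called in EET vs PBS, 184, was 341 with DESeq2, 662 without a filter, 341 with the replicate block and 48 to 436 with a library left out. Leaving out PBS-2 gave 436, PBS-1 350, EET-1 122, EET-2 61 and EET-3 48. The share of lower calls was 109 of 184 in the main fit, 198 of 341 with DESeq2, 335 of 662 without a filter and 173 of 341 with the block. Higher calls outnumbered lower ones without PBS-3 (81 and 63), PBS-2 (222 and 214) or EET-2 (33 and 28). Of the listed genes, 4 to 9 were called with a library left out. In EM vs Con, where 0 genes were called, DESeq2 called 113, no filter 4 and the replicate block 2, and leaving out a library gave 0 to 46, with 46 without Con-mGC-3 and 1 without EM-mGC-1. DESeq2 called 1 listed gene there. The 6 genes were not called in EM vs Con under any alternative. Their log2 fold changes with a library left out were -0.364 to 0.214 for Elavl2, which was positive without EM-mGC-1 (0.214), EM-mGC-4 (0.101) and Con-mGC-5 (0.115), 0.136 to 0.613 for Stmn2, -0.377 to -0.0942 for Dpp6, -1.24 to -0.691 for Snhg11, -0.66 to -0.439 for Kif1a and -0.542 to -0.0592 for Ptprq. For the fresh and cultured levels, log2 of PBS over EM was -0.0108 for Elavl2 without composition factors, and with TMM within each table it was -0.0854 for Elavl2, -0.718 for Dpp6 and 2.88 for Kif1a, where the median of all genes was -0.223. The causes of these shifts were not tested. Libraries with the same replicate number did not deviate together (correlations of 0.0602, 0.098 and -0.0237 in culture and from -0.252 to 0.225 in the fresh cells), so the numbers were not taken as pairs, although the methods call the cultured libraries paired. Stmn2 and Ptprq had 6 to 40 counts in the fresh libraries, and whether depth limits their comparison was not tested.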
